A study of Homo sapiens with 12 samples.

Results

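The subject is H3K79me3 over gene bodies in SPH, the colonosphere-derived line of the colorectal cancer cell line DLD1, set against parental DLD1. A gene was a row of the H3K27me3 table, whose rows on build hg19 are gene bodies of chromosomes 1 to 19. The H3K79me3 regions lying wholly inside a row were summed, and rows with 5 or more regions were kept, which gave 6525 genes of 49993 distinct rows. At the edge of that rule, 603 rows held 5 regions and 752 held 4.

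The series profiled 3 histone marks by chromatin immunoprecipitation and sequencing (ChIP-seq) in 4 lines, all cultured in McCoy's 5A with serum, with 1 library per line and mark. The submitters describe DLD1, the parent, as epithelial. They describe SPH, grown out of colonospheres, and SA, grown out of soft agar colonies, as mesenchymal. METS, taken from a xenograft's metastasis in the lung, is labelled epithelial again. Each derivative is 1 line with 1 library, so no test and no p-value is given. A fold is a ratio of counts per 1000000 counts of a library (CPM), with an exact 95% Clopper-Pearson interval that covers counting error only. Derivation, culture and library cannot be told apart in any value below, and fewer cells with a marked gene cannot be told from less mark per cell.

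H3K79me3 is placed by DOT1L, the main enzyme that methylates this lysine, on nucleosomes in the first part of transcribed genes. The mark therefore follows elongating polymerase and is read as a sign of active transcription. It is helped by ubiquitylation of histone H2B, whereas H3K27me3 is the mark of Polycomb silencing and H3K4me3 sits at active promoters.

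The H3K79me3 libraries held 7521451 counts in DLD1, 6165169 in SPH, 7273964 in SA and 6432882 in METS, over 157878 regions shared by the 4 lines. The kept genes took 82.9 to 84.2% of these counts. A kept gene had a median of 13 regions, a length of 45.31 kb and 897 counts over DLD1 and SPH together. Of the kept genes, 18.4% overlapped an earlier one and so share regions with it. The table carries no gene names. Symbols were inferred by matching lengths and spacing with the RefSeq table of GRCh38.p14, and a row without an inferred protein-coding symbol is given by its hg19 position. Among the kept genes 4934 have a symbol. Of the colon epithelium markers, 5 of 10 were kept genes with an inferred symbol: CDH1 (0.98-fold in SPH against DLD1), KRT18 (1.05), EPCAM (1.13), KRT8 (1.25) and KRT19 (1.54). Of the blood, endothelial and fibroblast markers with an inferred row (6, 3 and 5), 0 were kept genes.

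Over the genes as a whole, H3K79me3 in SPH lay close to DLD1, with a wider spread than SA. The median log2 ratio of SPH to DLD1 was -0.065, with the middle of the genes between -0.27 and 0.19 (quartiles) and 90% of them between -0.65 and 0.74. In SA the interquartile width was 0.29, against 0.47 in SPH and 0.47 in METS. Of the 6525 genes, 491 (7.52%) were at least 1.5-fold higher in SPH with an interval excluding 1, and 408 (6.25%) were lower by the same rule. At 2-fold, 104 genes (1.59%) were higher and 85 (1.3%) were lower. Higher genes made up 54.6% of the 1.5-fold calls with library totals, 73.0% with TMM factors (677 higher, 251 lower) and 74.7% after quantile normalization (564 higher, 191 lower). TMM factors put the median log2 ratio at 0.041, a shift of all genes that leaves their order as it was. With at least 10 regions per gene 45.6% of the calls were higher (220 higher, 262 lower of 4164 genes), so which side holds more genes depends on these choices.

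**Figure D1:**
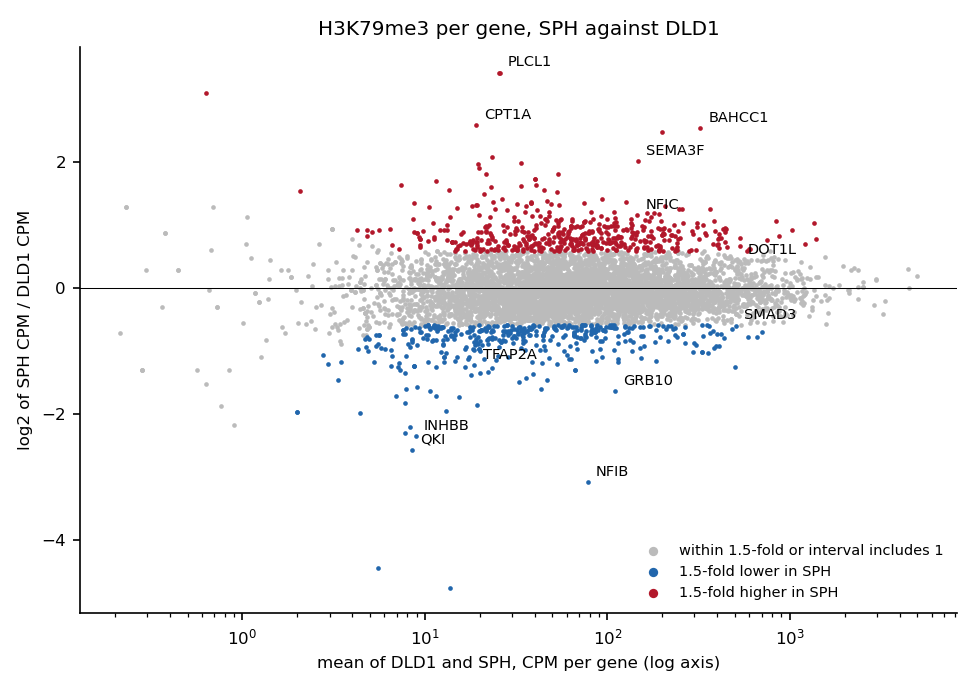
Each point is 1 of the genes with counts in both lines: the horizontal log axis gives its mean H3K79me3 level in DLD1 and SPH in CPM, and the vertical axis the log2 ratio of SPH to DLD1. Red and blue points lie past 1.5-fold with a counting interval that excludes 1, and NFIB stands apart below zero, with PLCL1, CPT1A and BAHCC1 above it.

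In most called genes the difference ran along most of the regions. The calls were made on the sums of these same regions, so this agreement follows in part from the call and is not separate evidence. The same holds for the counts of regions given for single genes below. In the genes called higher, a median of 93.3% of a gene's regions had a higher CPM in SPH, and in 209 of the 491 every region did. In the genes called lower the median was 90.9%, and in 106 of the 408 every region was lower.

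Among transcription factor genes, NFIB had the largest drop of any gene with an inferred symbol and 100 or more counts. NFIB encodes a member of the nuclear factor I family, which binds DNA as dimers and acts in cell differentiation. Over chr9:14081842-14398982 its H3K79me3 was 139.6 CPM in DLD1 against 16.4 in SPH, with 79.2 in SA and 44.8 in METS. All 3 derivatives lay below DLD1 and SPH was lowest, 8.52-fold lower (6.94 to 10.6) on 1050 and 101 counts. All 22 regions were lower in SPH. The regions lay between 85.8 and 174 kb from the 5′ end of the row. In the first of them DLD1 had 104 counts and SPH had 19.

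The family did not move as one. NFIC, a paralog, was at 90.1 CPM in DLD1 and 201.1 in SPH, 2.23-fold higher (2.03 to 2.45), with 32 of 33 regions higher. NFIA was at 1.18-fold. Both SA (106.4 CPM) and METS (133.7 CPM) lay between DLD1 and SPH for NFIC.

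Other transcription factor genes were low in SPH and not in METS. TFAP2A, which encodes the AP-2 alpha factor, had 26.2 CPM in DLD1 against 11.2 in SPH, with 20.8 in SA and 81.8 in METS. SPH was 2.34-fold lower than DLD1 (1.77 to 3.12), and METS was 3.12-fold higher (2.65 to 3.70). Overlap put TFAP2A among the named genes, as the row with most regions beside chr6:10409573-10416679 (3.28-fold lower, 1.99 to 5.65). NR2F1, an orphan nuclear receptor gene, had 16.1 CPM in DLD1 against 5.19 in SPH, with 11.1 in SA and 28.0 in METS, and SPH was 3.10-fold lower (2.08 to 4.73). PPARG, which encodes a nuclear receptor for fatty acids, had 11.8, 7.42, 3.89 and 15.1 CPM in DLD1, SA, SPH and METS. For PPARG the SPH value was 3.04-fold below DLD1 (1.92 to 4.99), and the interval of METS against DLD1 included 1.

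Of the named genes that encode signalling proteins, 3 were lowest in SPH. GRB10 encodes an adaptor that binds and restrains the insulin receptor, and it had 166.9 CPM in DLD1 against 53.5 in SPH, with 148.1 in SA and 428.0 in METS. SPH was 3.12-fold lower (2.76 to 3.53) with 92 of 96 regions lower, whereas METS was 2.56-fold higher (2.40 to 2.74). Cut into 3 equal stretches from the 5′ end, the gene was lower in SPH in each, at 0.32, 0.34 and 0.21 of the DLD1 level. INHBB, the gene of an activin subunit, had 14.9 CPM in DLD1 against 2.92 in SPH, with 9.21 in SA and 40.7 in METS, and SPH was 5.10-fold lower (3.08 to 8.92). INPP4B, which encodes a phosphoinositide phosphatase, had 13.6 CPM in DLD1 against 2.92 in SPH, with 7.84 in SA and 9.95 in METS. SPH was 4.64-fold lower (2.80 to 8.15), and all 7 INPP4B regions lay in the second of 3 equal stretches of its row. Of these 3 genes, GRB10 and INHBB were highest in METS and INPP4B in DLD1.

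The remaining named genes with less H3K79me3 in SPH were likewise lowest in that line. QKI, whose product is an RNA-binding regulator of splicing, was 5.96-fold lower (3.46 to 11.01), at 14.5 CPM in DLD1 and 2.43 in SPH. PARP8, of the ADP-ribosyltransferase family, was 4.97-fold lower (2.91 to 9.04). ATL3, which shapes the endoplasmic reticulum, was 3.65-fold lower (2.68 to 5.05), and PPP1R14C, an inhibitor of protein phosphatase 1, was 3.55-fold lower (2.19 to 6.01). The readthrough row COMMD3-BMI1 was 3.87-fold lower (2.65 to 5.83) and overlaps BMI1, so they share regions.

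Among genes with 100 or more counts, the lowest ratio belonged to a row without an inferred symbol, chr4:331603-378653. It had 26.5 CPM in DLD1 against 0.973 in SPH, with 11.1 in SA and 42.6 in METS. On 199 and 6 counts SPH was 27.2-fold lower (12.3 to 74.97), and all 11 regions were lower. Also unnamed were chr7:17503069-17598533, 3.06-fold lower with 40 of 40 regions lower, and chr8:125463048-125474391, 3.33-fold lower (2.39 to 4.75).

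**Figure D2:**
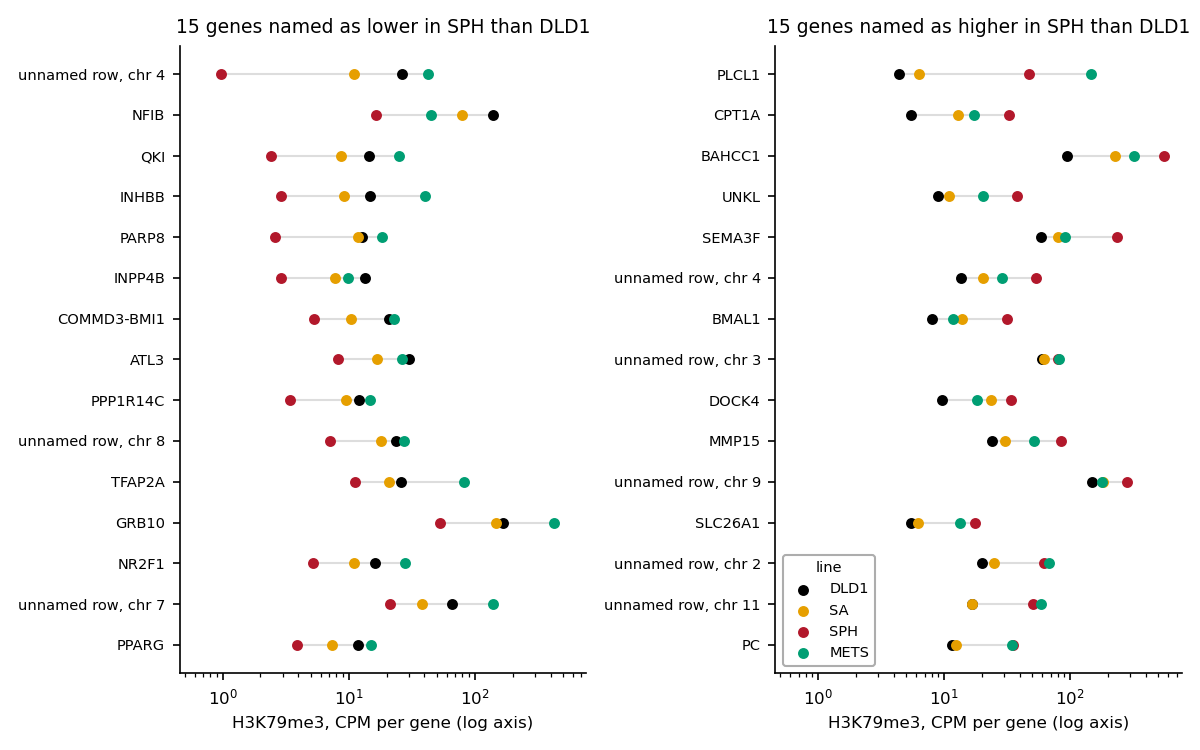
H3K79me3 in CPM (horizontal log axis) for the 15 genes named in each direction, with 1 point per line and 1 library per point. On the left SPH is the lowest line for every gene, and METS is the highest for 12 of the 15; on the right DLD1 is the lowest line for every gene.

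Of the genes named for more H3K79me3 in SPH, BAHCC1 had the highest CPM, a sum that also grows with the marked length. BAHCC1 encodes a chromatin protein with a BAH domain that recognises H3K27me3. Over chr17:79373540-79433357 it had 94.5 CPM in DLD1 against 549.4 in SPH, with 224.6 in SA and 320.9 in METS. All derivatives lay above DLD1, and SPH was 5.81-fold higher (5.36 to 6.31) with 27 of 27 regions higher. The gain was spread over the regions between 0.895 and 26.1 kb from the 5′ end. The first of 3 equal stretches of the row was 5.92-fold higher (5.43 to 6.46) and the second 4.94-fold (3.85 to 6.42). The symbol of this row rests on a gene nested in it and on no match of its ends.

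CPT1A, the gate for long-chain fatty acids into mitochondria, had 5.45 CPM in DLD1 against 32.8 in SPH, with 12.8 in SA and 17.1 in METS. SPH was 6.01-fold higher (4.28 to 8.63) with 6 of 6 regions higher. PC, pyruvate carboxylase, which feeds oxaloacetate into the citric acid cycle, had 11.4 CPM in DLD1 against 34.9 in SPH, with 12.5 in SA and 34.5 in METS. For PC the value of METS was as high as that of SPH, each near 3-fold above DLD1 (SPH 3.05, METS 3.02). All 7 PC regions lay in the last of 3 equal stretches of the row, between 91.1 and 100.7 kb from its 5′ end. An H3K4me3 region 101.6 kb from that end had 49.8 CPM in DLD1 and 41.5 in SPH. Whether these H3K79me3 regions follow transcription of PC was not tested. BMAL1, a core clock transcription factor gene, had 7.98 CPM in DLD1 against 31.3 in SPH, with 13.7 in SA and 11.8 in METS, and SPH was 3.92-fold higher (2.92 to 5.33).

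SEMA3F encodes a secreted semaphorin that guides axons and vessels, and it had 58.2 CPM in DLD1 against 235.7 in SPH, with 80.6 in SA and 91.4 in METS. SPH was 4.05-fold above DLD1 (3.63 to 4.51) with 20 of 20 regions higher, while METS was 1.57-fold above it. MMP15, a membrane-type matrix metalloproteinase gene, had 23.8 CPM in DLD1 against 83.9 in SPH, with 30.4 in SA and 51.1 in METS, and SPH was 3.52-fold higher (2.97 to 4.20). The row chr4:980785-998316, with the inferred symbol SLC26A1, an anion transporter gene, was 3.24-fold higher (2.25 to 4.77). Of its 5 regions, 4 lay in the last of 3 equal stretches from the inferred 5′ end. Its largest H3K4me3 region lay 17.4 kb from that end, so this symbol is uncertain. DOCK4, which activates small GTPases, was 3.52-fold higher (2.68 to 4.67), and UNKL, a zinc finger gene, was 4.22-fold higher (3.21 to 5.63). The 8 UNKL regions all lay in the last of 3 equal stretches of its row. An H3K4me3 region 35.4 kb from its 5′ end had 57.4 CPM in DLD1 and 50.9 in SPH. Whether the 8 regions follow transcription from the 5′ end was not tested.

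The largest ratio among genes with 100 or more counts was that of PLCL1, which encodes a catalytically inactive relative of phospholipase C. Its row had 4.39 CPM in DLD1 against 47.0 in SPH, with 6.32 in SA and 146.6 in METS, so METS rather than SPH was highest. SPH was 10.7-fold above DLD1 (7.46 to 15.9) and METS 33.4-fold (23.6 to 48.8). Of the 33 regions, 31 also lie in chr2:199164087-199239821, a row without an inferred symbol that lies inside the PLCL1 row and was 10.6-fold higher (7.41 to 15.8). The last of 3 equal stretches of the PLCL1 row held 28 regions, and the first held 1, without counts in DLD1 or SPH. The H3K4me3 region at the 5′ end of PLCL1 was at 1.23-fold in SPH (0.91 to 1.66). Another, 512.6 kb from that end and among the H3K79me3 regions, had 0 counts in DLD1 and 0 in SA, with 10 in SPH and 18 in METS. The other rows without a symbol were chr4:1003724-1020685 (3.96-fold higher), chr2:241825465-241836306 (3.13) and chr11:289135-296107 (3.07). Overlap put chr3:52568029-52613253 (1.34-fold) and chr9:139694818-139723918 (1.90-fold) among the named genes, as the rows with most regions beside NT5DC2 (3.74-fold higher, 2.80 to 5.05) and chr9:139698379-139703300 (3.34-fold higher, 2.74 to 4.08). RABL6, which overlaps the second, was 1.79-fold higher.

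**Figure D3:**
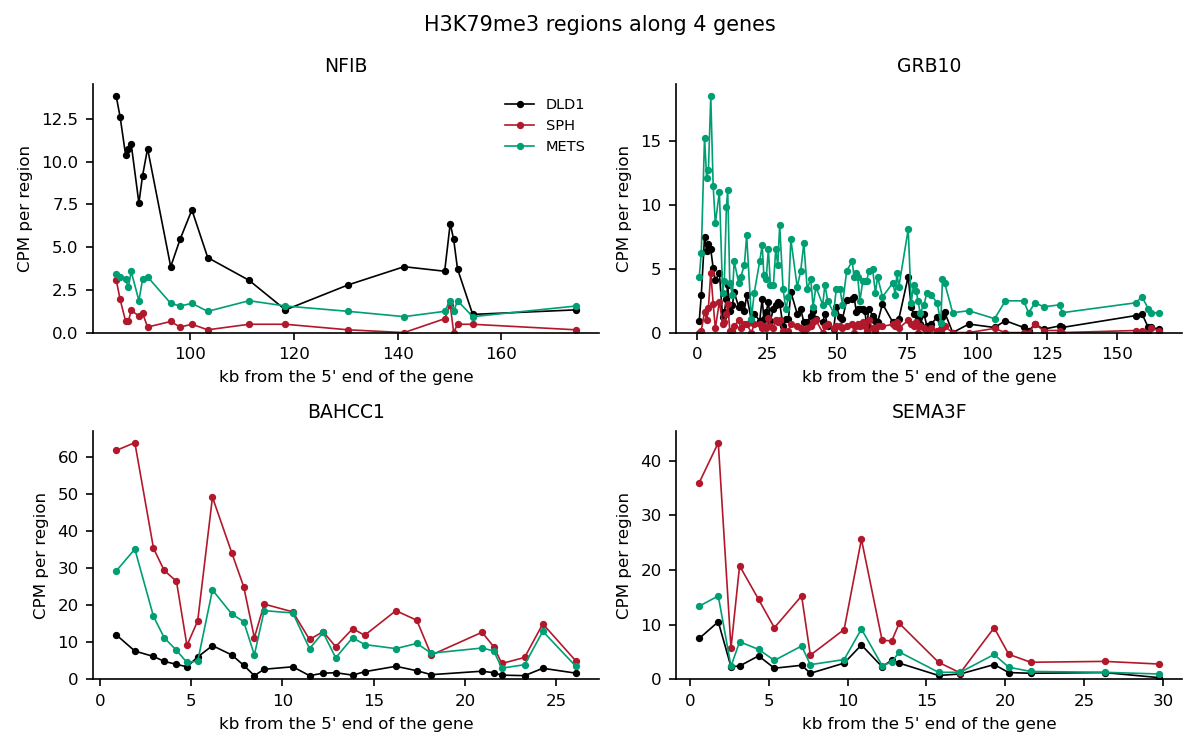
CPM of each H3K79me3 region (vertical axis) against the distance of its centre from the 5′ end of the gene in kb (horizontal axis), for NFIB, GRB10, BAHCC1 and SEMA3F in DLD1, SPH and METS. SPH runs below DLD1 in most regions of NFIB and GRB10 and above it throughout BAHCC1 and SEMA3F, and METS is highest along most of GRB10.

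The 250 bases before the RefSeq start of 3 of these genes are printed because their rows start within 1 kb of a counted H3K4me3 region. Other named genes, NR2F1 and BMAL1 among them, met that condition too. The 3 are examples, 1 gene with less and 2 genes with more H3K79me3 in SPH. CG dinucleotides are in capitals, the strand is that of the gene (plus in all 3), and the sequences are from RefSeq on GRCh38.p14.
INHBB: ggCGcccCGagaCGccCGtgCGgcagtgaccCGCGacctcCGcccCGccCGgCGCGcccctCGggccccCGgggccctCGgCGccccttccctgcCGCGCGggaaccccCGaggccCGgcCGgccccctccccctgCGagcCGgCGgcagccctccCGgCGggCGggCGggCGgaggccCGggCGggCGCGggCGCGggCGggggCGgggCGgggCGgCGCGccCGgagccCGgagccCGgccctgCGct
SEMA3F: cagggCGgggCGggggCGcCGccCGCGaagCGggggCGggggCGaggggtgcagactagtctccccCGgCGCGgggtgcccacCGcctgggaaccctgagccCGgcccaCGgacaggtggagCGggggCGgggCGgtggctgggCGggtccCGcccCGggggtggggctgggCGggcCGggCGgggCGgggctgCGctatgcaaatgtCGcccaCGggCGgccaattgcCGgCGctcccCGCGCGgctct
MMP15: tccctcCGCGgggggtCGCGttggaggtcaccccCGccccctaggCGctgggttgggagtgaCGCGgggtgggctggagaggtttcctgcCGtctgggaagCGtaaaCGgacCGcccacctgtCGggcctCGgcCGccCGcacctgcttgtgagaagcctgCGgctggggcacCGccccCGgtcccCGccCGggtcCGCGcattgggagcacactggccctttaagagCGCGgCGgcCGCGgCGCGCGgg
The INHBB stretch held 46 CG dinucleotides (89.6% GC), a number reached by 0.4% of 27305 such stretches. SEMA3F held 34 (82.0% GC, 6.6% of stretches) and MMP15 held 31 (74.8% GC, 10.6%), against a median of 11 over all. The kept genes with such a sequence had a higher median of 23, with 27 for those called higher and 23 for those called lower. All 3 lay above these medians, and 3 examples say nothing about genes of either direction. The H3K4me3 region just upstream of INHBB (chr2:121102974-121103347 on hg19) had 38.4 CPM in DLD1 against 23.3 in SPH, with 35.9 in SA and 40.5 in METS. At SEMA3F the region just upstream (chr3:50191920-50192186) had 19.3 CPM in DLD1 and 11.5 in SPH, a ratio of 0.59 (0.44 to 0.79), while that just inside (chr3:50192669-50193131) had 59.1 and 60.1 CPM. The region inside MMP15 (chr16:58059853-58060422) had 88.4 and 75.5 CPM.

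H3K27me3 over the same gene bodies was lower at many of the genes with more H3K79me3. It was at least 1.5-fold lower in SPH, with an interval excluding 1, at 129 of the 491 genes (26.3%), against 4.91% of the genes with H3K27me3 counts. The median log2 ratio of H3K27me3 over these 491 was -0.40, and over all genes it was -0.08. Genes called lower for H3K79me3 had a median of 0.03, with 13 of 408 lower. With TMM factors for H3K27me3, chosen after seeing the data, 84 of the 491, 5 of the 408 and 91 of the 5617 other genes were lower, in place of 129, 13 and 177. Gene length moves with this, since genes higher in H3K79me3 were shorter. With the genes put in 5 groups of near equal number by length, in the shortest group 31.2% of those higher in H3K79me3 had lower H3K27me3, against 7.5% of those neither higher nor lower, and in the longest group these shares were 6.7 and 2.2%.

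BAHCC1 carried the plainest exchange of the marks. Its H3K27me3 was 51.6 CPM in DLD1 against 10.6 in SPH, with 32.7 in SA and 21.3 in METS, 4.87-fold lower in SPH, so the order of the lines was the reverse of that for H3K79me3. The overlapping row chr17:79369275-79375658 had 504 H3K27me3 counts in DLD1 and 26 in SPH, and its H3K79me3 was 5.57-fold higher (5.03 to 6.17). H3K4me3 in and near that row went from 569 counts to 1210. In and near the BAHCC1 row itself it went from 384 to 557 counts, 1.36-fold (1.19 to 1.56) and so inside 1.5-fold. The H3K4me3 region at the 5′ end of BAHCC1 (chr17:79373464-79373913) had 147 counts in DLD1 and 166 in SPH. SEMA3F had 11.1 CPM of H3K27me3 in DLD1 and 5.39 in SPH, 2.06-fold lower. In all, 27 of the 491 genes were at least 2-fold lower in H3K27me3, against 0.904% of the genes with H3K27me3 counts. Among them were DVL1, a transducer of Wnt signals, at 1.77-fold for H3K79me3, MICALL2, which acts in the transport of junction proteins, at 2.10-fold, and BAMBI, a decoy receptor of the TGF-beta family, at 1.90-fold. Their H3K27me3 counts in DLD1 and SPH were 58 and 29 for DVL1, 186 and 90 for MICALL2 and only 22 and 12 for BAMBI.

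The opposite exchange, less H3K79me3 with more H3K27me3, was found at 9 of the 408 genes, beside 0.751% of the genes with H3K27me3 counts that were higher in that mark. NFIB had 152.8 CPM of H3K27me3 in DLD1 against 317.8 in SPH, with 169.2 in SA and 189.8 in METS, 2.08-fold higher in SPH (1.98 to 2.18). H3K27me3 was also 2.16-fold higher over PPP1R14C (1.96 to 2.39), 2.14-fold over NR2F1 (1.53 to 3.03) and 2.21-fold over TPM1 (1.74 to 2.81), a tropomyosin gene with 1.79-fold lower H3K79me3. The other 5 rows have no inferred symbol, chr4:331603-378653 among them at 1.59-fold (1.30 to 1.96).

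H3K4me3, summed over regions inside a gene or within 2 kb of it, differed at few of these genes. It was lower at 15 of the 384 genes with less H3K79me3 and H3K4me3 counts in both lines, and higher at 5 of the 487 genes with more H3K79me3 and H3K4me3 counts in both lines. Over all genes with H3K4me3 counts, 0.612% were lower and 1.96% were higher. Over chr4:331603-378653 H3K4me3 went from 282 counts in DLD1 to 4 in SPH, and over MGST1, a glutathione transferase gene, from 174 to 11. MGST1 had 80 H3K79me3 counts in DLD1 and 3 in SPH, a ratio of 0.046 (0.009 to 0.139). At NFIB the H3K4me3 sum was 1.98-fold lower, and its 9 regions differed among themselves. The region chr9:14348498-14348946 had 106 counts in DLD1 and 7 in SPH, while chr9:14322684-14323116 had 185 and 197. NCOR1, a nuclear receptor corepressor gene, and PIGL, whose row overlaps it at the 5′ end, were 2.23-fold and 2.17-fold lower in H3K79me3, with H3K4me3 at 0.47 of the DLD1 level. The H3K4me3 sums of both rows take in regions near the shared end, so the equal values are not separate observations. SCNN1A, an epithelial sodium channel subunit gene, was 1.72-fold higher in H3K79me3 (1.61 to 1.85) and 1.86-fold higher in H3K4me3.

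**Figure D4:**
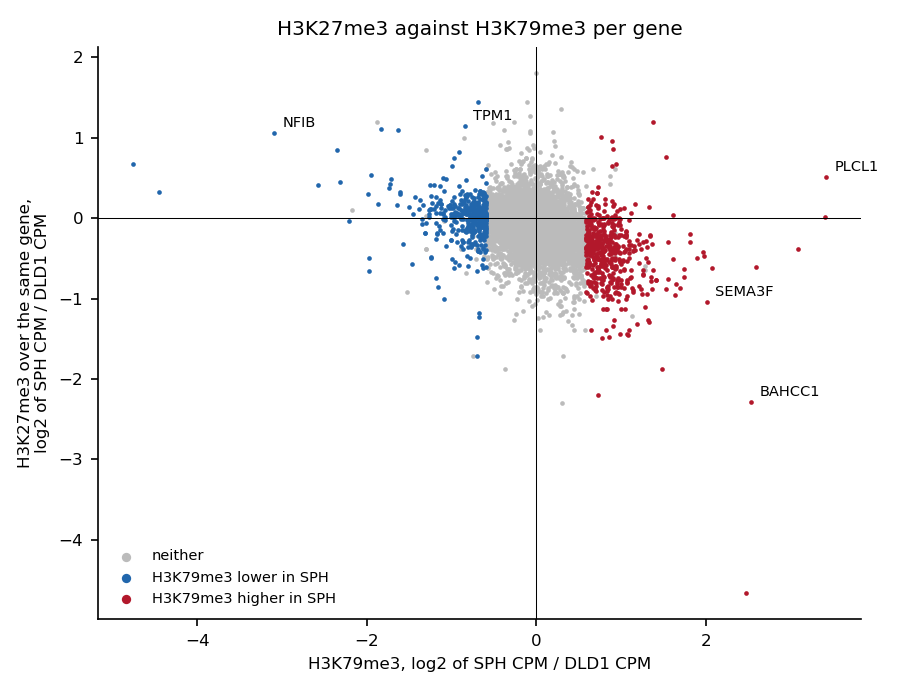
Log2 ratio of SPH to DLD1 for H3K27me3 (vertical axis) against that for H3K79me3 (horizontal axis), 1 point per gene with counts for both marks. Red points, higher in H3K79me3, lie mostly below zero on the vertical axis (median -0.40), and blue points lie about zero (median 0.03), with NFIB at the upper left and BAHCC1 at the lower right.

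Genes with more and with less H3K79me3 in SPH differed in length and place. The genes called higher had a median length of 21.2 kb and those called lower 84.2 kb. Over the same 5 groups of length, from the shortest to the longest genes, the median log2 ratio was 0.13, 0.0, -0.08, -0.13 and -0.19. Spearman's rho of the ratio with length across genes was -0.30 in SPH, 0.11 in SA and -0.07 in METS, which share the DLD1 library, and genes are not independent replicates. The median GC content of the 250 bases upstream was 72.4% over 285 genes called higher, 67.2% over 253 called lower and 66.0% over all 4161 with such a sequence.

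Chromosome 19 stood highest, with a median log2 ratio of 0.34, 28.9% of its 225 genes called higher and 0.4% called lower. Chromosome 16 followed at 0.16, with 16.0% higher and 1.5% lower. Chromosome 4 was lowest at -0.18, with 4.7% higher and 12.5% lower. The medians of METS against DLD1 were also highest on chromosomes 19 and 16 (0.3 and 0.22), while those of SA were -0.12 and -0.04. On chromosome 4 the medians were 0.07 in METS and 0.05 in SA. The median gene length was 26.2 kb on chromosome 19 and 68.4 kb on chromosome 4. Genes called higher often lay side by side. The next gene along the chromosome that did not overlap was also higher for 33.7% of 487 higher genes, against 7.52% of all genes. For 408 lower genes the next gene was also lower for 8.8%, near the 6.25% of all genes. In windows of 2 Mb with at least 10 genes, at least 50% were higher in 12 of 212 windows. The 5 windows with the largest shares were chromosome 19 from 2 to 4 Mb (16 of 22 genes higher), chromosome 9 from 138 to 140 Mb (16 of 23), chromosome 7 from 0 to 2 Mb (9 of 13), chromosome 8 from 144 to 146 Mb (18 of 27) and chromosome 16 from 0 to 2 Mb (16 of 25). Overlapping rows in a window share regions. Neighbours and windows were counted for SPH only. Copy number was not measured and its part in these values was not tested.

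Genes of the machinery that places H3K79me3 had mixed values. DOT1L itself had 450.3 CPM in DLD1 against 608.3 in SPH, with 393.0 in SA and 546.7 in METS, 1.35-fold higher in SPH (1.29 to 1.42) and so inside 1.5-fold. Of 17 genes listed for DOT1L and its partners in elongation complexes, 13 were kept genes with a symbol, and 2 were higher and 0 lower, beside 7.52% higher and 6.25% lower over all genes. Against those shares, counts this small in this and the lists below show nothing particular to a list, so single genes are described. MLLT1, which encodes the ENL subunit, was 1.64-fold higher (1.53 to 1.76), and CDK9, the elongation kinase, 1.54-fold (1.37 to 1.74), or 1.49-fold after quantile normalization and then not called. The list's median log2 ratio was -0.09, against -0.06 over all genes. Of the H2B ubiquitylation and elongation genes, 1 of 10 was called with library totals, as lower. With TMM factors 2 genes of this list were called higher. RNF20, part of the H2B ubiquitin ligase, was 1.67-fold lower (1.17 to 2.43), at 0.60 of the DLD1 level with library totals and 0.73 after quantile normalization, which ends the call, whereas its partner RNF40 was at 1.46-fold.

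Of 14 kept Polycomb and trithorax genes 2 were higher and 2 lower (7.52% and 6.25% of all genes), with a median log2 ratio of -0.12. BMI1, a subunit of Polycomb repressive complex 1, had 17.7 CPM in DLD1 against 5.35 in SPH, with 9.76 in SA and 20.8 in METS, and SPH was 3.30-fold lower (2.24 to 4.99). JARID2, a cofactor of Polycomb repressive complex 2, was 1.91-fold lower (1.60 to 2.27), at 59.0 CPM in DLD1 compared with 31.0 in SPH, and at 0.68 of the DLD1 level after quantile normalization, which ends the call. KDM6B, an H3K27 demethylase gene, was 1.71-fold higher (1.48 to 1.99) with 14 of 14 regions higher, and BAHCC1 is described above. EZH2, the H3K27 methyltransferase gene, was at 1.11-fold.

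Genes that tell epithelial from mesenchymal cells gave few calls. Of 13 listed EMT transcription factors, 1 was a kept gene with a symbol, TCF3, at 1.27-fold. Of the mesenchymal genes 3 were kept: ITGAV, an integrin subunit gene, was 1.74-fold lower (1.42 to 2.15), ITGB1 was at 0.79-fold and COL4A2, a collagen gene, was at 1.498-fold (1.21 to 1.85), just under the threshold. Of 17 epithelial junction genes 2 were lower and 0 higher, beside 6.25% and 7.52% of all genes, and 1 was lower with TMM factors or quantile normalization. TJP1, a tight junction scaffold gene, was 1.70-fold lower (1.60 to 1.81) with 63 of 68 regions lower, and OCLN, occludin, 1.53-fold lower (1.40 to 1.66). OCLN was not past 1.5-fold with TMM factors (0.71) or quantile normalization (0.70). Among 8 epithelial regulators 2 were higher, the transcription factor genes ELF3 at 1.89-fold (1.73 to 2.06) and KLF4 at 1.88-fold (1.66 to 2.13). In SA, the other line described as mesenchymal, ELF3 was at 0.65-fold (0.58 to 0.73). Of 6 keratin and simple epithelium genes KRT19 was 1.54-fold higher (1.36 after quantile normalization) and KRT80 1.53-fold lower (0.70 of DLD1 with TMM factors), and each loses its call in that way.

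Signalling lists were also mixed. In the Wnt and crypt list 2 of 14 were higher and 0 lower (7.52% and 6.25% of all genes), with a median log2 ratio of 0.17. EPHB2, a receptor of crypt cells, had 20.7 CPM in DLD1 against 51.1 in SPH, with 23.5 in SA and 32.0 in METS, 2.46-fold higher in SPH (2.03 to 3.004), and AXIN1, a scaffold of the beta-catenin destruction complex, was 1.61-fold higher (1.53 to 1.70). Of 4 kept Notch genes, the ligand gene JAG2 was 1.86-fold higher (1.66 to 2.10), the glycosyltransferase gene LFNG 3.12-fold higher (1.97 to 5.06) and the receptor gene NOTCH2 1.67-fold lower (1.44 to 1.94), or 0.72 of DLD1 after quantile normalization and then not called. METS lay above SPH for both JAG2 (318.4 against 117.3 CPM) and LFNG (19.4 against 11.2 CPM). Of 17 TGF-beta and BMP genes 1 was called, the signal transducer gene SMAD3, at 607.7 CPM in DLD1 but 401.8 in SPH. SPH was 1.51-fold lower (1.44 to 1.59) and not past 1.5-fold with either other scaling. DUSP5, a phosphatase of ERK, was 1.69-fold lower (1.55 to 1.86), the 1 of 14 Hippo and EGFR-RAS genes called. None of 7 hypoxia genes and none of 2 intestinal identity genes was called. Of 3 kept stemness markers 1 was higher, KLF4, and 2 were lower, BMI1 and the surface gene ALCAM, which was 2.20-fold lower (1.69 to 2.87).

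Of 9 kept housekeeping genes 2 were higher and 0 lower, beside 7.52% and 6.25% of all genes, with a median log2 ratio of 0.30. EEF2, a translation elongation factor gene, was 1.56-fold higher (1.49 to 1.65) with 10 of 10 regions higher, and GUSB, a lysosomal enzyme gene, 1.65-fold (1.38 to 1.96). After quantile normalization 1 of the 2 remained past 1.5-fold, since EEF2 was then at 1.36-fold.

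**Figure D5:**
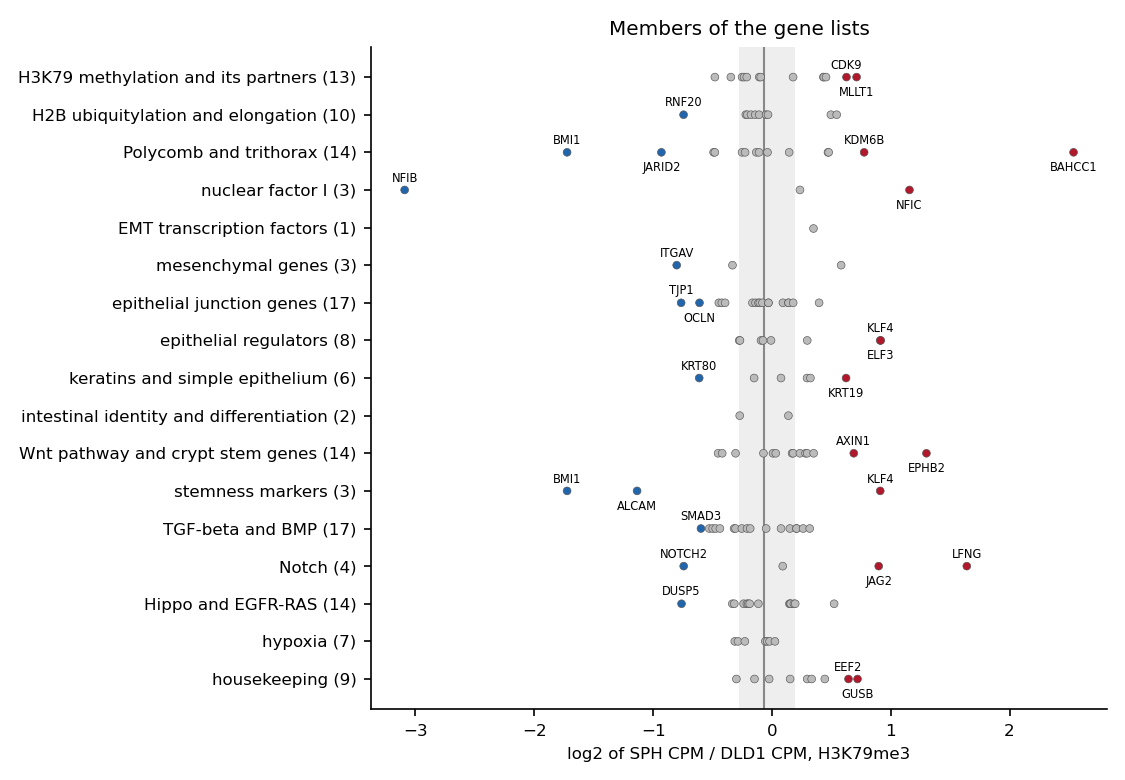
Log2 ratio of SPH to DLD1 for H3K79me3 (horizontal axis) of each kept member of the gene lists, with the number kept in brackets. Red and blue members lie past 1.5-fold with an interval excluding 1, the grey band spans the quartiles of all genes (-0.27 to 0.19) and the line marks their median. Most members lie in or near the band, and NFIB, BMI1 and BAHCC1 lie farthest out.

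The genes called in SPH looked different in the other derivatives, whose ratios use the same DLD1 library. The 491 genes higher in SPH had a median of 1.58-fold in METS, with 287 past 1.5-fold, and of 0.95-fold in SA, with 18 past it. By the same rule, 11.8% of all genes were higher in METS and 0.92% in SA. The 408 genes lower in SPH had a median of 0.83-fold in SA, with 75 past 1.5-fold lower, and of 0.99-fold in METS, with 33. Over all genes 2.59% were lower in SA and 3.13% in METS. Another 33 of these 408 genes were past 1.5-fold in the opposite direction in METS, where 11.8% of all genes were higher.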

How the data were processed

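The 12 ChIP-seq libraries cover 3 histone marks in 4 lines, 1 library each. The authors deposited raw counts per region or gene body, per the file headers, on hg19, per the submitters' processing notes. The aligner, region caller, counter and input control are not given in the sources used here. The H3K27me3 table is held in part (chromosomes 1 to 19, 7773 rows skipped), so its CPM refers to that part.

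H3K79me3 regions lying wholly inside a row were summed, rows with at least 5 regions were kept, and sums were divided by the library total and multiplied by 1000000. H3K4me3 was summed inside genes and within 2 kb of them. Ratios carry exact 95% Clopper-Pearson intervals conditional on the sum of both counts. A gene was called at 1.5-fold or 2-fold with an interval excluding 1. The intervals cover counting error only, and copies made by PCR are not marked. With 1 library per line there is no test of the lines, and the calling script was tested on simulated data. Python 3.11.15, NumPy 2.4.6, pandas 2.3.3, SciPy 1.17.1, matplotlib 3.10.9, R 4.3.3 and edgeR 4.0.16 (TMM factors only) were used.

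The rows carry no names and no table of their build was given, so symbols are inferred from the RefSeq table of GRCh38.p14, a departure from the planned matching. Row lengths and spacing gave 1692 anchor rows. Other rows were matched by the distance of their ends to these, with 1 end within 200 bp and the shorter length at least 40% of the longer. A further 228 rows were named from genes nested in them. The settings were revised while seeing which rows received names. The alphabetical order of the rows, not used in the matching, fitted 13570 of 13821 protein-coding names (98.2%). Names outside that order are not printed, except BAHCC1, whose row stands outside it and whose step was added after it had no name. A few names may be wrong, and that of SLC26A1 is uncertain.

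The genes named were the 15 farthest from 1 in each direction among genes with at least 100 counts and an interval excluding 1, with overlapping rows represented by the row with most regions, plus DOT1L and the list members called. Other list members named here, and NT5DC2, RABL6, MGST1, NCOR1, PIGL, TPM1, SCNN1A, DVL1, MICALL2 and BAMBI were chosen after their values were seen. The members and lists were chosen with earlier results of these data known.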

Additional observations from a re-analysis of the deposited data

Results flagged for a closer look

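Of the genes named in the report or held in its lists, 8 were past 1.5-fold in SPH and past 1.5-fold the other way in another derivative, each with an interval excluding 1. Each line has 1 library and all use the same DLD1 library, so the differences were not tested. Over all 408 genes lower in SPH, 33 were higher in METS by the same rule, while 11.8% of all genes were higher there. Of the 491 genes higher in SPH, 5 were lower in SA, where 2.59% of all genes were lower. ELF3 was at 0.65-fold in SA and 1.89-fold in SPH, although both lines are described as mesenchymal. METS lay above DLD1 and SPH below it at the other 7. TFAP2A was at 3.12-fold in METS and 0.43 in SPH, INHBB at 2.74 and 0.20, and GRB10 at 2.56 and 0.32. The row chr7:17503069-17598533 was at 2.12-fold in METS and 0.33 in SPH. NR2F1 was at 1.74-fold in METS and 0.32 in SPH, QKI at 1.74 and 0.17, and chr4:331603-378653 at 1.61 and 0.04.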

How the results depend on the processing

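No paired analysis was possible because each line has 1 library per mark. TMM factors gave 251 genes 1.5-fold lower, 187 genes 2-fold higher and a median log2 ratio of 0.041. TMM factors raise every ratio of SPH to DLD1 alike. All 491 genes called higher with library totals therefore had to stay called, and the lower calls could only become fewer, 251 of the 408 staying. Quantile normalization gave 191 genes 1.5-fold lower, 31 genes 2-fold lower and a median of 0.002. With at least 10 regions per gene, 4164 of the 6525 genes were left. Of these, 220 were 1.5-fold higher, 262 lower, 37 were 2-fold higher and 43 lower. Higher genes then made up 45.6% of the 1.5-fold calls, against 54.6% with at least 5 regions. The causes of these shifts were not tested. With TMM factors for H3K27me3, an alternative chosen after seeing the data, 84 genes higher for H3K79me3, 5 lower and 91 neither had lower H3K27me3. Counts stayed within 1.5 times their values with at least 100 counts, 0.5 CPM added, each region once in its shortest row, or without each gene's region with most counts. The last of these gave 445 higher and 461 lower, so the larger side turned, and shared 389 of the 491 and 351 of the 408 calls. Scaling of the lists was also chosen after seeing the data: TMM moved 6 of 36 counts and quantile normalization 10 of 36, among them 2 H2B genes, 1 Hippo and EGFR-RAS gene and 1 mesenchymal gene that were called higher with TMM factors. None of the single genes changed direction, but the median log2 ratio changed sign with TMM factors and with quantile normalization. Low counts limit genes such as MGST1 (80 and 3 counts).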
